A study of Mus musculus with 16 samples.

Results

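Among the single-cell transcriptomes of tumours from WB1P and WB1P-Myc mice, both models of triple-negative breast cancer, 184 of 4798 filtered cell barcodes carried myeloid transcripts but no C1q transcript and few transcripts of major histocompatibility complex class II (MHC II). They were selected on their own counts of unique molecular identifiers (UMIs, each standing for 1 captured RNA molecule), in barcodes with 450 to 4000 genes and under 20% mitochondrial UMIs. Each had at least 4 UMIs summed over Tyrobp, Fcer1g, Ctss, Lyz2, Cd68 and Csf1r, and 0 UMIs of C1qa, C1qb and C1qc. Each also had 0 UMIs of Cd3d, Cd3e, Cd3g and Nkg7, fewer than 10 of Col1a2 and Col3a1, and fewer than 5 UMIs of Cd74, H2-Aa, H2-Ab1 and H2-Eb1 per 1000. Of the 184 barcodes, 27 came from 1307 WB1P barcodes and 157 from 3491 WB1P-Myc barcodes.

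WB1P tumours arose in WapCre;Brca1F/F;Trp53F/F mice and WB1P-Myc tumours in mice of that genotype with an added Cre-activated Myc transgene, so all the animals lacked Brca1 and Trp53 wherever Cre was active. WapCre is active in mammary epithelium, so these deletions were directed at epithelial and not at myeloid cells. End-stage tumours of untreated mice were dissociated, and live DAPI-negative single cells were sorted for Drop-seq, a method that counts the 3′ ends of transcripts. Several timed droplet fractions were collected from each suspension, and 4 of them were kept on the basis of droplet quality. The tumours came from 2 mice per model according to a legend in the paper, but the labels give no age and tie no fraction to an animal, and whether the cells of both mice were pooled is not stated. Each model was therefore treated as 1 sample of 4 fractions without known animals, and no test between the models was made. Each model was its own suspension with its own droplet fractions, so an effect of the model and one of its preparation cannot be told apart. All intervals below are exact 95% intervals that cover counting error only.

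Monocytes leave the bone marrow, enter tumours through the chemokine receptor CCR2, and there lose monocyte genes such as Ly6c2 and Plac8 while they gain macrophage genes. The complement component C1q, encoded by C1qa, C1qb and C1qc, is made by most mature tissue macrophages, and MHC II presents antigen to helper T cells. Myeloid cells low in both are commonly taken to be recent monocytes or cells of related states. Besides engulfing debris, such cells release chemokines that attract neutrophils and further monocytes, as well as enzymes that remodel matrix.

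The libraries differed in depth before any selection. The 4 WB1P libraries held 256985 to 1918672 UMIs and the 4 WB1P-Myc libraries 3814562 to 4960334, each over 1000 barcodes. WB1P fraction 1, the shallowest, gave 1 of the 184 barcodes, and the other WB1P fractions gave 6, 10 and 10. The WB1P-Myc fractions gave 37, 31, 37 and 52. Between all pairs of these libraries 3 barcode sequences were shared, and none of the 184 was seen in a second library.

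A large part of the selected barcodes also carried tumour cell transcripts. At least 2 UMIs of 18 tumour markers (epithelial genes such as Epcam and Krt8, and glial-type genes such as Sox10 and Mbp) were present in 12 of 27 WB1P and 42 of 157 WB1P-Myc barcodes, 44.4% and 26.8%. In WB1P these 12 barcodes held 80532 of the 103067 UMIs of the selected barcodes, or 78.1%, and in WB1P-Myc the 42 held 178929 of 360089, or 49.7%. They were deeper, with medians of 6308 and 2190 UMIs per barcode against 1255 and 1352 in the others. The 6 myeloid genes of the selection made up a median of 0.978 and 5.01 UMIs per 1000 in them, against 8.98 and 19.9 in the others. Of the 20 barcodes above 5000 UMIs, 19 carried tumour markers. Whether they were droplets with 2 cells, tumour cells with free myeloid RNA or single cells was not tested. Results are therefore given mainly for the 130 barcodes with fewer than 2 tumour-marker UMIs, called tumour-low below, with the values for all 184 beside them. The tumour-low barcodes numbered 15 in WB1P, with 0, 4, 5 and 6 per fraction, and 115 in WB1P-Myc, with 29, 24, 22 and 40. The WB1P values thus rest on 22535 UMIs, and those of WB1P-Myc on 181160. Summed over the epithelial list, the tumour-low barcodes held 30.7 to 166 UMIs per 1000000 in the WB1P-Myc fractions and 0 to 205 in the WB1P fractions, and tumour-type barcodes 1175 to 1623 and 5531 to 9550. The glial-type list gave 113 to 246 and 0 to 126 in the tumour-low barcodes, and 3103 to 4184 and 167 to 266 in the tumour-type barcodes. Tumour-type barcodes were filtered barcodes with 3 or more UMIs of the 18 tumour markers. They also had fewer than 4 UMIs of the 6 myeloid genes and fewer than 10 of Col1a2 and Col3a1. The limit of fewer than 2 UMIs of these markers itself keeps both sums low in the tumour-low barcodes. The limit of 3 or more likewise raises the sums of both lists together in the tumour-type barcodes.

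**Figure D1:**
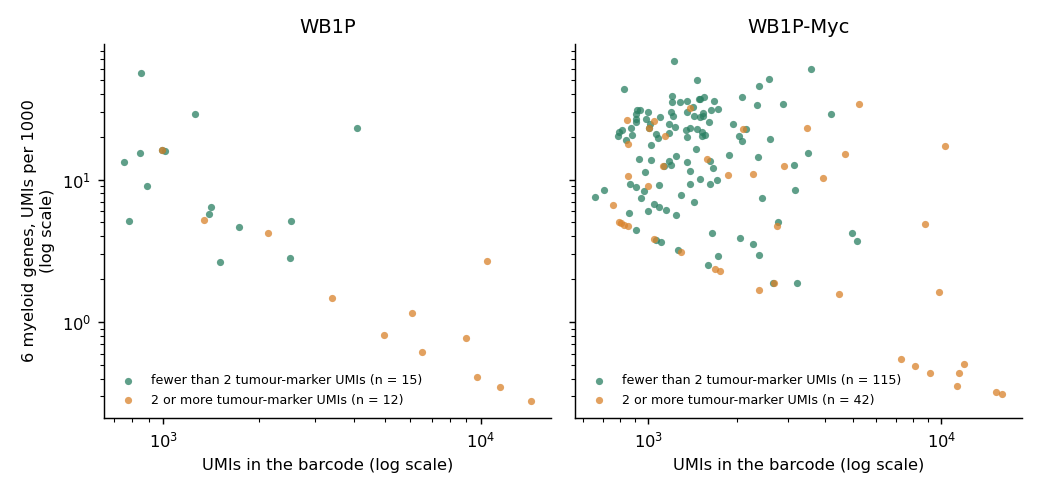
Each point is 1 of the 184 selected barcodes, with its UMIs on the horizontal axis and the UMIs of the 6 myeloid selection genes per 1000 on the vertical axis, both on log scales. In both panels the barcodes with 2 or more tumour-marker UMIs (12 in WB1P, 42 in WB1P-Myc) reach to the right and down, to depths of 14373 and 16105 UMIs, whereas the deepest tumour-low barcodes hold 4081 and 5162.

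The barcodes on either side of each limit were counted. Inside the myeloid limit, 25 barcodes had a myeloid sum of exactly 4, and 72.0% of them carried tumour markers, against 20% of the 145 barcodes with a sum of 7 or more. Just outside, 49 barcodes had a sum of 3 and 183 a sum of 2, with tumour markers in 79.6% and 88.5%. On the C1q side, 46 barcodes with 1 C1q UMI and 37 with 2 were left out. MHC II UMIs were absent from 111 of the 184, 4 lay between 4 and 5 per 1000, and 3 otherwise matching barcodes lay between 5 and 6. How often C1q is missed at low depth was gauged in C1q-positive barcodes. When the 663 myeloid barcodes with 3 or more C1q UMIs were thinned to 600 UMIs each, 24 of them, or 3.62% (2.33 to 5.34), had none left. Among all 777 with at least 1 C1q UMI it was 71, or 9.14% (7.21 to 11.4). Cells that make C1q but had no C1q UMI at full depth could not enter these counts. The shares therefore do not tell how many of the selected barcodes missed C1q. The selected barcodes had a median of 1431 UMIs.

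The selected barcodes were checked against markers of monocytes and of other blood cells. At least 3 UMIs of Tyrobp, Fcer1g, Lyz2 and Ccr2 were present in 172 of the 184, or 93.5%, and in 1.09% of 2384 tumour-type barcodes, whose median depth was 2877 UMIs against 1431. All but Ccr2 belonged to the selection, so this share describes the rule. The tumour-type share does so too, because that class was limited to fewer than 4 UMIs of the 6 myeloid genes. Of a list of 12 classical monocyte genes, 3 or more UMIs were present in 20 of 27 WB1P barcodes (74.1%) and 110 of 157 WB1P-Myc barcodes (70.1%), and in 9 of 15 and 85 of 115 tumour-low barcodes. The shares were 48.3% and 26.5% in tumour-type barcodes, 84.5% and 54.9% in C1q-positive MHC II-low barcodes (C1q sum of 3 or more, 116 and 284 barcodes), and 83.7% and 81.7% in C1q-negative MHC II-high barcodes (43 and 71). After thinning to 600 UMIs, 1 or more monocyte UMIs remained in 80.0% and 76.5% of the tumour-low barcodes. The same share was 88.8% and 62% in the C1q-positive and 88.4% and 93.0% in the MHC II-high class. In tumour-type barcodes it was 50% and 26.6%. The monocyte list was thus also found in most barcodes of the other myeloid classes, and the selected barcodes are named here by the rule alone.

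Markers of other white blood cells were counted as well. Of the lists for dendritic cells, mast cells or basophils, B or plasma cells and T or NK cells, 3 or more UMIs were found in 1, 0, 0 and 2 barcodes. The limits on T/NK and MHC II genes in the selection lower these counts by construction. The neutrophil list reached 3 UMIs in 6 of 27 WB1P barcodes (22.2%) and 11 of 157 WB1P-Myc barcodes (7.01%), compared with 5.36% and 0.806% of tumour-type barcodes. It did so in 25.6% and 19.7% of the MHC II-high class and in 8.62% and 0.352% of the C1q-positive MHC II-low class. The WB1P share was 7.41% at 5 UMIs and 41.8% with a minimum of 200 genes, and the WB1P-Myc share 4.17% without WB1P-Myc fraction 1. Among the tumour-low barcodes it did so in 5 of 15 and 7 of 115. Over the 130 tumour-low barcodes, the list's UMIs came mainly from Mmp9 with 36, Trem1 with 18 and Mmp8 with 10. S100a8 had 7, Csf3r 5, Il1r2 4 and S100a9 2, and Retnlg, Cxcr2, G0s2 and Stfa2l1 had 0. Of the Mmp9 UMIs, 29 came from 6 barcodes with 10 or more UMIs of Ctsk, a protease gene of osteoclasts, and 4 of these 6 were among the 12 that reached 3 UMIs of the list. Counted without Mmp9, the list reached 3 UMIs in 3 of 15 and 4 of 115.

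Ccr2, the receptor through which monocytes are recruited, was found in only a minority of the tumour-low barcodes. It was present in 3 of 15 WB1P and 36 of 115 WB1P-Myc barcodes, or 13.3% and 15.7% after thinning, and in none of the thinned tumour-type barcodes. Its level was 222 UMIs per 1000000 (CPM, with an interval of 72.0 to 518) in WB1P. In WB1P-Myc it was 386 CPM (301 to 488), where the 4 fractions gave 317, 215, 360 and 549. C1q-positive MHC II-low barcodes held 113 and 164 CPM, and C1q-negative MHC II-high barcodes 510 and 930. In WB1P-Myc the fractions of the tumour-low barcodes lay below all those of the MHC II-high class, which ranged from 620 to 1253, and overlapped those of the C1q-positive class, from 103 to 274. For the tumour-low barcodes the log2 ratio of Ccr2 over the C1q-positive class was 0.97 in WB1P and 1.24 in WB1P-Myc. Taken over all selected barcodes, those with tumour markers included, it was -1.22 in WB1P and 0.59 in WB1P-Myc. In WB1P the direction thus turned.

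Ly6c2 and Plac8 also lay between the comparison classes in WB1P-Myc, whereas Fn1 was higher than in both, at 933 CPM against 410 in the C1q-positive and 685 in the MHC II-high class. Ly6c2, which encodes a surface protein of classical monocytes, stood at 133 CPM in WB1P (3 UMIs) and 221 in WB1P-Myc, where 13 of 115 barcodes held it. It was at 0 and 24.1 CPM in C1q-positive MHC II-low barcodes and at 84.9 and 235 in the MHC II-high class. Plac8 stood at 311 and 259 CPM, with 31.7 and 39.1 in the C1q-positive and 306 and 490 in the MHC II-high class. Cd14, the co-receptor for bacterial lipopolysaccharide, was broader, with 1864 and 2064 CPM and UMIs in 84 of 115 WB1P-Myc barcodes. In the MHC II-high class Cd14 was higher, at 4264 and 2595 CPM. Lyz2, the lysozyme gene used in the selection, reached 5503 and 11647 CPM against 12562 and 14160 in the C1q-positive class.

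The selected barcodes were a larger share of the myeloid barcodes in WB1P-Myc than in WB1P. Of the barcodes that passed the myeloid, T/NK and collagen conditions, 27 of 375 in WB1P (7.20%, 4.80 to 10.3) and 157 of 700 in WB1P-Myc (22.4%, 19.4 to 25.7) were C1q-negative and MHC II-low. The WB1P fractions gave 25.0, 5.50, 7.63 and 7.63%, the first of these being 1 of 4 barcodes, and the WB1P-Myc fractions 21.3, 16.5, 23.9 and 28.4%. Apart from WB1P fraction 1 the fractions did not overlap. The fractions of the tumour-low barcodes did not overlap at all. They were 0, 3.67, 3.82 and 4.58% in WB1P and 16.7, 12.8, 14.2 and 21.9% in WB1P-Myc, with pooled shares of 4.00% (2.26 to 6.51) and 16.4% (13.8 to 19.4). The C1q-positive MHC II-low class was also a larger share in WB1P-Myc, 40.6% against 30.9%. C1q-positive MHC II-high barcodes were 42.1% in WB1P and 15.0% in WB1P-Myc, and C1q-negative MHC II-high barcodes 11.5% and 10.1%. All gated myeloid barcodes together were 28.7% and 20.1% of the filtered barcodes.

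Counted over all filtered barcodes, the selected barcodes were 2.07% in WB1P (1.37 to 2.99) and 4.50% in WB1P-Myc (3.83 to 5.24). By fraction the WB1P mean was 1.96% ± 0.573 (SD, n = 4). The WB1P-Myc mean was 4.52% ± 1.04 (SD, n = 4), and no fraction of one model overlapped those of the other. The tumour-low barcodes were 1.15% (0.644 to 1.89) and 3.29% (2.73 to 3.94) of all filtered barcodes. With 1 suspension per model, this difference describes 2 suspensions.

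**Figure D2:**
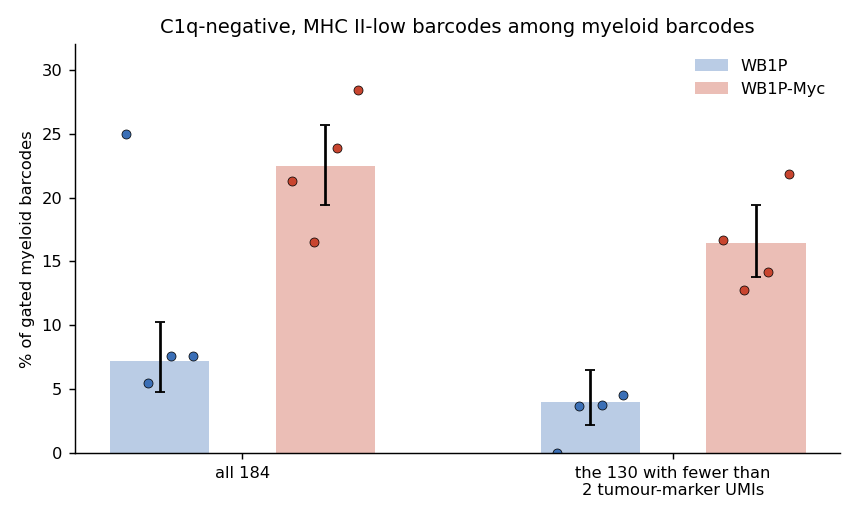
Bars give the share of gated myeloid barcodes (%) that were C1q-negative and MHC II-low in WB1P (blue) and WB1P-Myc (red), for all 184 and for the 130 tumour-low barcodes, with exact 95% intervals as error bars and the 4 fractions as points. Pooled shares were 7.20% and 22.4% for all and 4.00% and 16.4% for tumour-low barcodes, and the high WB1P point is fraction 1 with 1 of 4 barcodes.

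The transcripts that were highest in the tumour-low barcodes included those of phagocytes in general. In the tumour-low barcodes Malat1 led with 30300 CPM, followed by Fth1 and Ftl1, the iron-storing ferritin chains, with 12912 and 12784, and Actb with 12278. Apoe, which carries lipids, reached 8356 CPM, and Spp1, the secreted phosphoprotein osteopontin, 5322. Ctsb, a lysosomal protease, stood at 4016 CPM.

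Chemokines that attract neutrophils set the tumour-low barcodes apart from the C1q-positive MHC II-low class. CXCL1, CXCL2 and CXCL3 bind CXCR2 on neutrophils, and their genes lie close together in a chemokine cluster on mouse chromosome 5. The promoters are shown because these genes carry a shared string next to the transcription start: in each of the 3 sequences, from RefSeq for build GRCm38.p6 on the plus strand, the capitals mark GGAATTTCC, a form of the binding motif of NF-kappaB factors.
Cxcl1, chr5:90891125-90891254: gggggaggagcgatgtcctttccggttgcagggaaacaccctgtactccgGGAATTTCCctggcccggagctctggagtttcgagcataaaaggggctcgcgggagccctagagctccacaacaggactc
Cxcl2, chr5:90903779-90903908: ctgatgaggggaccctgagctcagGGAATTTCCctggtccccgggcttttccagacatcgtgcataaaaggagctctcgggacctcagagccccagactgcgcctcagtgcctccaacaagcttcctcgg
Cxcl3, chr5:90785981-90786110: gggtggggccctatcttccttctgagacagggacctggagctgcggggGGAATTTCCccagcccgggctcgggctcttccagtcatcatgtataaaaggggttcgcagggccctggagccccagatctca
Each sequence runs from 120 bases before to 10 bases from the annotated start, and the string begins 70, 96 and 72 bases before it. On either strand (GGAATTTCC or GGAAATTCC) the string is in 104 of 32851 promoters of 300 bases, or 0.317%, and among 10 listed chemokine genes found in the promoter table it is in those of Cxcl1, Cxcl2, Cxcl3 and Cxcl10. With any base in the middle (GGAANTTCC) it is in 305, or 0.928%. The string was chosen with these promoters in view, and a match is a description of letters, not of binding.

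Cxcl2 was the gene of this cluster with most UMIs. In the tumour-low barcodes of WB1P-Myc it stood at 3979, 3408, 3264 and 2874 CPM in the 4 fractions. All 4 lay above the 282 to 750 CPM of the C1q-positive MHC II-low class. In WB1P it reached 1848, 3085 and 11335 CPM in fractions 2 to 4, the last resting on 1 barcode with 63 of the 129 Cxcl2 UMIs. The pooled log2 ratio over the C1q-positive class was 2.47 (2.15 to 2.79) in WB1P, and the WB1P-Myc suspension gave 2.76 (2.57 to 2.96). Over all 184 the ratios were 0.60 and 2.08, so in WB1P the 2-fold difference was lost. Cxcl2 UMIs were present in 64 of 115 WB1P-Myc barcodes, 45.2% after thinning, against 3.35% of tumour-type barcodes. In C1q-negative MHC II-high barcodes Cxcl2 stood at 3024 and 2693 CPM, and the ratios over that class, 0.92 (0.58 to 1.26) and 0.32 (0.11 to 0.53), fell short of 2-fold.

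Cxcl1 and Cxcl3 were lower and rested on fewer barcodes. Cxcl1 stood at 888 CPM in WB1P and 591 in WB1P-Myc, with log2 ratios of 2.92 (2.00 to 3.81) and 2.22 (1.80 to 2.65) over the C1q-positive class. Over the MHC II-high class, which held 51.0 and 587 CPM, the log2 ratio was 4.12 (2.37 to 6.52) in WB1P, and in WB1P-Myc it was 0.01 (-0.46 to 0.49). In WB1P the tumour-type barcodes held as much Cxcl1, 878 CPM, whereas in WB1P-Myc they held 78.3. Cxcl3 stood at 266 and 282 CPM, and 12 of 115 WB1P-Myc barcodes held all of its 51 UMIs there. In the C1q-positive class it was at 22.6 and 19.6 CPM. Il1b, the inflammatory cytokine interleukin 1 beta, stood at 2086 and 1087 CPM in the tumour-low barcodes, and its log2 ratio over the C1q-positive class was 0.63 (0.15 to 1.07) in WB1P, and in WB1P-Myc it was 1.73 (1.45 to 2.02). In the MHC II-high class Il1b was higher than in the tumour-low barcodes, at 3619 and 2967 CPM, with log2 ratios of -0.79 (-1.28 to -0.33) and -1.45 (-1.71 to -1.18).

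**Figure D3:**
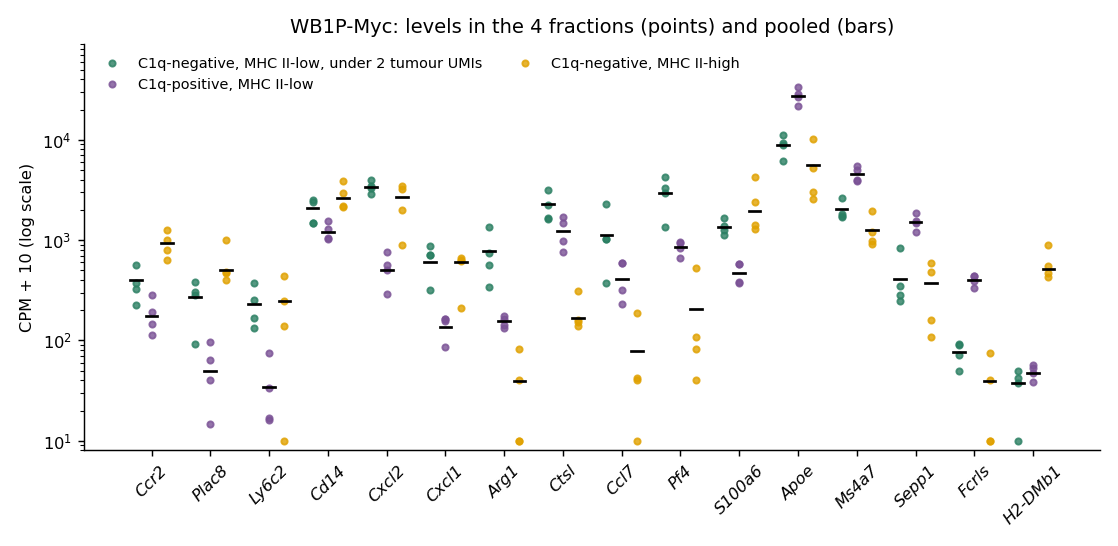
CPM + 10 (log scale) of 16 genes in the 4 WB1P-Myc fractions (points) and pooled (bars) for tumour-low C1q-negative MHC II-low (green), C1q-positive MHC II-low (purple) and C1q-negative MHC II-high barcodes (yellow). Cxcl2 is high in both C1q-negative classes and Arg1 in the green class, whereas Apoe, Ms4a7, Sepp1 and Fcrls peak in the purple and H2-DMb1 and Ccr2 in the yellow class.

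Across all genes, 19 were at least 2-fold higher in tumour-low barcodes than in C1q-positive MHC II-low barcodes in both models, 0.906% of 2098 genes with at least 20 UMIs in each model, and 40 were at least 2-fold lower, or 1.91%. The genes of the selection were left out. Barcodes with tumour markers were left out on the tumour-low side only. The C1q-positive class held up to 1576 CPM of the epithelial list (WB1P fraction 4) and 1742 of the glial-type list (WB1P-Myc fraction 1). With such barcodes left out of both classes, an alternative added after the data were seen, 17 genes were higher and 39 lower. A call needed the 2-fold ratio alone, and the interval of at least 1 model reached past 0 for 3 of the 19 higher genes (Cnppd1, Ero1l and Tnfaip3) and for 30 of the 40 lower genes. The 19 were Arg1, Ccl6, Ccl9, Cnppd1, Ctsk, Cxcl1, Cxcl2, Ell2, Ero1l, Ier3, Inhba, Nfil3, Ptgs2, S100a10, S100a11, S100a4, S100a6, Slpi and Tnfaip3. With all 184 barcodes, 62 genes were higher, 2.29% of 2706, and 155 lower, 5.73%. These counts were 39 higher without WB1P fraction 4, and 102 and 103 lower without WB1P fractions 3 and 4. The higher genes of that comparison with the strongest ratios included Krt8 and Epcam, themselves tumour markers, and the milk protein relative Wfdc18. Without the tumour-marker barcodes both were lower, a direction that leaving out barcodes by these same genes fixes. Of the 3 genes tested in tumour-low barcodes from the CXC chemokine list, which did not hold Pf4, 2 were higher. The median log2 ratio was 2.47 in WB1P and 2.22 in WB1P-Myc, against all-gene medians of -0.07 and 0.04. With all 184 barcodes 1 of the 3 was higher and 1 lower, with medians of 0.60 and 1.66.

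Arg1, which encodes the arginine-degrading enzyme arginase 1, was higher in the tumour-low barcodes than in either comparison class. The WB1P-Myc fractions gave 1346, 737, 332 and 549 CPM, all above the 123 to 166 CPM of the C1q-positive MHC II-low class and the 0 to 72.0 CPM of the MHC II-high class. The 3 WB1P fractions with such barcodes gave 5543, 1440 and 756 CPM. The log2 ratio over the C1q-positive class was 1.72 (1.21 to 2.21) in WB1P, and in WB1P-Myc it was 2.38 (2.00 to 2.77). Taken over all 184 barcodes it was -0.41 and 1.62, no longer 2-fold in WB1P. Of 11 hypoxia and glycolysis genes tested in tumour-low barcodes, only Arg1 and Ero1l, an oxidoreductase of the endoplasmic reticulum, passed in both models.

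The 19 genes included 4 that encode S100 calcium-binding proteins, a grouping made after their values were seen. S100a6 stood at 1775 CPM in WB1P and 1336 in WB1P-Myc, with log2 ratios of 2.16 (1.58 to 2.71) and 1.53 (1.28 to 1.77) over the C1q-positive class. S100a10 gave 1.32 (0.39 to 2.16) and 1.51 (1.20 to 1.81), S100a11 1.49 (0.69 to 2.22) and 1.27 (0.80 to 1.73). S100a4 gave 2.25 in WB1P-Myc but rested on 6 UMIs in WB1P. Counted over all 184 barcodes S100a6 gave 3.56 and 1.42. In the MHC II-high class it stood at 2243 and 1919 CPM, above the tumour-low barcodes.

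CC chemokines, which attract monocytes and other leukocytes, were split between the models. Of 7 tested against the C1q-positive class, Ccl9 and Ccl6 were higher in both. Ccl9 gave log2 ratios of 2.22 (1.35 to 3.04) and 1.41 (1.10 to 1.72), and Ccl6 2.03 (1.74 to 2.31) and 1.11 (0.93 to 1.29), although 83 of its 146 WB1P UMIs came from 1 barcode, without which the WB1P ratio was 1.10. In the full set of 184 neither passed, with Ccl9 at 0.03 and 0.82 and Ccl6 at -0.14 and 0.51. Ccl2, a main ligand of CCR2, was higher in WB1P-Myc by 1.60 (1.30 to 1.90) but lower in WB1P at -2.24 (-5.31 to -0.35), where 2 UMIs were counted. Pf4, the platelet factor 4 chemokine that tissue macrophages also express, was not on the CC list. It gave 1.81 (1.64 to 1.98) in WB1P-Myc and -0.67 (-1.76 to 0.25) in WB1P, where the interval held 0. The difference of these ratios between models was not tested.

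Some macrophage genes were lower in the tumour-low barcodes than in the C1q-positive class. The classes were split on C1q, which most mature tissue macrophages make, so the selection itself bears on such genes. Of 9 tissue macrophage genes tested, 3 were lower in both models, with median log2 ratios over the list of -1.41 in WB1P and -0.63 in WB1P-Myc. These 3 were Apoe, Ms4a7 and Sepp1. With all 184 barcodes 6 of the 9 were lower, with medians of -3.09 and -1.09. Pf4 went the other way in WB1P-Myc, with a log2 ratio of 1.81 (1.64 to 1.98), and none of 9 lipid-associated macrophage genes was lower in both models. With all 184 barcodes 4 of these 9 lipid-associated macrophage genes were lower, with medians of -0.79 in WB1P and -0.72 in WB1P-Myc. Apoe stood at 9205, 6111, 11121 and 8752 CPM in the WB1P-Myc fractions, below the 21672 to 33622 CPM of the C1q-positive class and without overlap, with log2 ratios of -1.63 (-1.71 to -1.56) there and -2.56 (-2.87 to -2.26) in WB1P. Ms4a7, a membrane protein of macrophages, was in 77 of 115 WB1P-Myc barcodes at 2037 CPM, against 4572 CPM in the C1q-positive class. The full set of 184 gave -4.07 and -2.37 for Apoe and -5.07 and -1.89 for Ms4a7. In that set the median log2 ratio of 9 Fc receptor and integrin genes fell as well, from -0.21 to -2.40 in WB1P. In WB1P-Myc it fell from 0.37 to -0.25. The lower values over all 184 are thus no separate check of these calls. Sepp1, which encodes the selenium carrier selenoprotein P, gave -2.36 (-4.0 to -1.12) and -1.92 (-2.29 to -1.57).

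Fcrls and Cx3cr1 were also lower in both models. Fcrls, an Fc receptor-like gene, had 0 UMIs in the 15 WB1P barcodes, which at a floor of 3 counts over the group put its log2 ratio at -1.71 or lower, and -2.57 (-3.54 to -1.74) in WB1P-Myc. Cx3cr1, the fractalkine receptor, gave -2.75 (-5.81 to -0.87) and -1.63 (-2.21 to -1.10). Hpgds, a prostaglandin D synthase, gave -1.61 (-4.69 to 0.30) and -1.60 (-2.36 to -0.92), so in WB1P its interval reached past 0. Mfge8, a bridge for dying cells, rested on 1 UMI in each model.

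**Figure D4:**
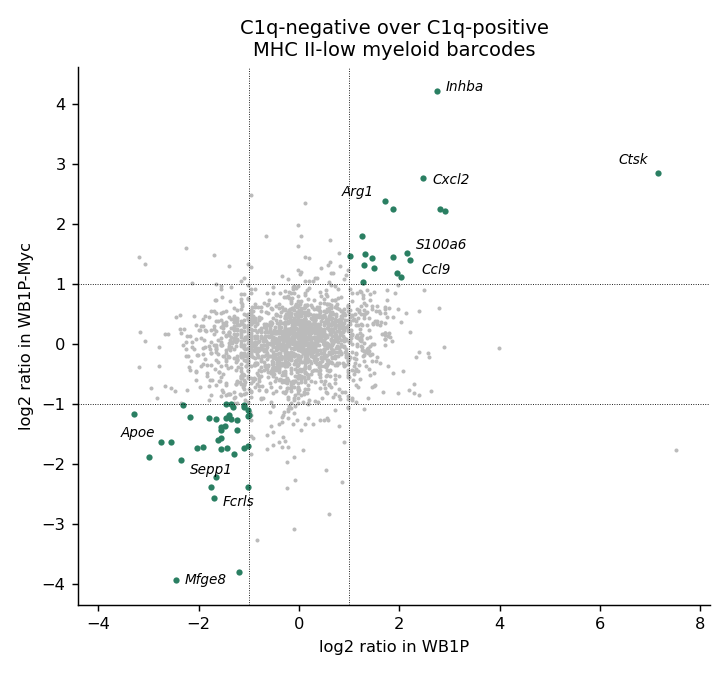
Each point is 1 of the 2098 genes, with the log2 ratio of tumour-low C1q-negative over C1q-positive MHC II-low barcodes in WB1P (horizontal) and WB1P-Myc (vertical), dotted lines at 2-fold, and genes past them in both models in green. Cxcl2, Arg1, S100a6, Ccl9, Inhba and Ctsk lie in the upper right (19 genes), and Apoe, Sepp1, Fcrls and Mfge8 in the lower left (40 genes).

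C1q-negative barcodes above the MHC II limit were the other close class. Against these 43 and 71 barcodes, 14 genes were at least 2-fold higher in tumour-low barcodes in both models, 1.95% of 717 tested, and 22 were lower, 3.07%. The interval of at least 1 model reached past 0 for 2 of the 14 and 5 of the 22. The MHC II-high class kept its barcodes with tumour markers. With these left out as well, 12 genes were higher and 19 lower. With all 184 barcodes, 60 were higher, 4.31% of 1393, and 68 lower, 4.88%, and the strongest higher genes included the epithelial gene Krt18 and Epcam. Without WB1P fraction 4 the higher genes numbered 28, and without WB1P fraction 2, 3 or 4 the lower genes numbered 44.

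The 14 higher genes included Ctsl and Arg1. Ctsl, a lysosomal protease, stood at 1603, 1658, 2213 and 3149 CPM in the WB1P-Myc fractions, above the 130 to 297 CPM of the MHC II-high class, although 144 of its 410 UMIs came from 1 barcode. Its log2 ratio was 2.12 (1.36 to 2.92) in WB1P, and in WB1P-Myc it was 3.85 (3.14 to 4.67). Arg1 gave 1.90 (1.22 to 2.58) and 4.70 (3.12 to 6.99). Of 8 genes tested from the list for lipid-associated macrophages, 4 were higher and none lower, with median log2 ratios of 1.04 and 1.42, against all-gene medians of -0.07 and 0.01. These were Cd63, a lysosomal membrane protein, with 1.53 (0.86 to 2.20) and 1.40 (0.98 to 1.83), the lipid droplet gene Plin2 with 1.73 and 1.25, and the proteases Ctsb with 1.23 and 1.45 and Ctsd with 1.14 and 2.46. Ftl1 gave 1.37 (1.18 to 1.57) and 1.34 (1.20 to 1.49). With all 184 barcodes none of the 8 lipid-associated macrophage genes was 2-fold higher in both models, with medians of 0.19 and 0.88. The same was true of Ctsl, Arg1 and Ftl1, where Ctsl gave 0.82 and 3.28 and Arg1 -0.24 and 3.94.

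The lower genes included further parts of the MHC II pathway, which the selection of both classes concerned. H2-DMb1, H2-DMb2 and H2-DMa, whose products load peptide onto MHC II, gave log2 ratios of -3.26, -3.32 and -3.29 in WB1P and -4.21, -4.29 and -2.17 in WB1P-Myc. Il1r2, a decoy receptor for interleukin 1, was at 2 UMIs in each model, with -3.80 (-6.88 to -1.90) and -6.15 (-9.22 to -4.25). Ccl17, a chemokine of dendritic cells, had 0 UMIs in the tumour-low barcodes of both models against 50 and 55. Clec7a, the receptor dectin-1, gave -1.63 (-2.48 to -0.87) and -1.21 (-1.53 to -0.88). Ccr2 was lower as well, at -1.20 (-2.92 to 0.18) and -1.27 (-1.73 to -0.81). H2-DMb1, Il1r2, Clec7a and Ccr2 were also lower in both models with all 184 barcodes, Ccr2 at -3.39 and -1.91. In that set the median of 5 Fc receptor and integrin genes fell too, from -0.07 to -2.26 in WB1P. In WB1P-Myc it fell from 0.22 to -0.34, so the values over all 184 are no separate check of these genes.

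WB1P-Myc and WB1P barcodes of the selection were then set side by side. With all 184 barcodes, 482 genes were at least 2-fold higher in WB1P-Myc with an interval that left out 0, 12.5% of 3856, and 357 lower, 9.26%. Without WB1P fraction 3 the higher genes numbered 291. The strongest falls were Csn3, Sox9, Fbln2, Clu and Epcam, with log2 ratios from -7.52 to -4.39. Csn3 is a milk protein gene, and Sox9, Clu and Epcam are epithelial genes. Among tumour-low barcodes 68 genes were higher, 3.72% of 1826, and 92 lower, 5.04%.

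Several CC chemokine and macrophage genes were higher in the tumour-low barcodes of WB1P-Myc. These barcodes also held more of the 6 myeloid genes of the selection, with a median of 19.9 UMIs per 1000 against 8.98 in WB1P. The part of this in the differences was not tested. Pf4 stood at 3306, 4238, 1328 and 2955 CPM in the WB1P-Myc fractions and at 0, 926 and 126 CPM in the 3 WB1P fractions, without overlap and with a log2 ratio of 2.74 (1.85 to 3.81). Ccl2 gave 3.39 (1.51 to 6.44) and Ccl7, another CCR2 ligand, 3.06 (1.49 to 5.35), on 2 and 3 UMIs in WB1P. Of 8 CC chemokine genes tested 4 were higher and 1, Ccl6, lower, at -1.51 (-1.79 to -1.23). Without the WB1P barcode that held 83 of its 146 UMIs there, left out after the data were seen, Ccl6 gave -0.59 (-0.97 to -0.18) and no longer passed. Of 8 tissue macrophage genes tested, 4 were higher and none lower. Ms4a7 gave 2.94 (1.80 to 4.39), Mrc1, the mannose receptor, 1.88 (0.29 to 4.19), and Apoe 1.09 (0.79 to 1.41). Nr4a2 gave 2.97 and Thbs1 2.92, each with 1 UMI in WB1P. Pf4, Ccl2, Ms4a7 and Apoe were higher with all 184 barcodes as well, at 4.32, 3.27, 3.99 and 1.86. In that set 5 of the 6 myeloid genes of the selection were higher too, with a median log2 ratio of 1.40. In tumour-low barcodes it was 2 of the 6, with a median of 0.07. The rise over all 184 was thus not particular to the named genes and is no separate check of them.

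Genes lower in WB1P-Myc came from several functions. Mmp12, the macrophage elastase, stood at 348 CPM in WB1P-Myc and 3683 in WB1P, a log2 ratio of -3.40 (-3.90 to -2.91). Trf, the iron carrier transferrin, gave -3.69 (-4.57 to -2.83), and the metal-binding Mt2 -3.34 (-4.20 to -2.50). Tumour-type barcodes of WB1P held Trf at 956 CPM and Mt2 at 312. Of 10 hypoxia and glycolysis genes tested, 4 were lower and none higher. They included Arg1 at -1.45 (-1.94 to -0.94) and the glycolytic enzyme gene Aldoa at -1.29 (-1.78 to -0.77). Summed, the list stood at 18477 CPM in WB1P fraction 2, on 4 barcodes, and at 8021 and 6549 in fractions 3 and 4. The WB1P-Myc fractions held 4360 to 6057 CPM. For Arg1 the fractions given above overlapped between the models. With all 184 barcodes 3 of 13 tested genes of the list were lower. Cxcl2 gave -0.77 (-1.05 to -0.48), short of the 2-fold limit. None of the 4 genes tested from the CXC chemokine list, which did not hold Pf4, passed it. Ccr2 gave 0.80 (-0.49 to 2.47). With all 184 barcodes Mmp12 was still lower at -1.80 (-2.26 to -1.35) and Ccr2 was higher at 2.35 (1.07 to 4.01), while Arg1, at -0.08 (-0.55 to 0.41), and Ccl6, at 0.06 (-0.21 to 0.33), did not pass. The part of the tumour-marker barcodes in these differences was not tested.

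Within a model the tumour-low barcodes were not alike. In the 115 WB1P-Myc barcodes, limits on single genes, chosen after their values were seen, described how far transcripts went together. Pf4 was absent from 58 barcodes and had 3 or more UMIs in 39, which came from all 4 fractions (13, 10, 5 and 11). The 39 held Ccl7 at 2005 CPM against 215 in the 58, Ccl2 at 1795 against 283, Ccl6 at 5222 against 554 and Mrc1 at 973 against 113. Apoe was alike in both, at 8842 and 8286 CPM. The 39 also held more of the 6 myeloid genes of the selection, 24.7 against 17.1 UMIs per 1000, and the part of this in the other differences was not tested.

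Cxcl2 went with other inflammatory genes. In 34 barcodes with 5 or more Cxcl2 UMIs, Cxcl1 had 96 UMIs against 3 in the 51 barcodes with no Cxcl2. Il1b had 135 against 19, Ptgs2, the prostaglandin synthase COX-2, 44 against 2, and Inhba, an activin subunit, 60 against 0. Nfkbia, which encodes an inhibitor of NF-kappaB that the factor itself induces, stood at 3356 and 603 CPM. Ly6c2 went the other way, with 3 UMIs against 29. Inhba was mostly from 1 barcode, with 37 of all 61 UMIs. The myeloid genes of the selection stood at 23.7 UMIs per 1000 in the 34 barcodes and at 15.6 in the 51.

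Some monocyte genes were higher with Ccr2. In the 36 barcodes with a Ccr2 UMI, Plac8 had 32 UMIs against 15 in the 79 without, and Ms4a4c 26 against 11, although the 79 held 129236 UMIs in all against 51924. Ifitm3, an interferon-inducible antiviral gene, stood at 2388 and 704 CPM. Mmp12 had 0 UMIs against 63. Cd14 stood at 2947 and 1710 CPM. The intervals of the log2 ratios for Ly6c2, F13a1, Fn1 and Thbs1 held 0, with Ly6c2 at 270 and 201 CPM. The 6 myeloid genes of the selection stood at 17.4 UMIs per 1000 with Ccr2 and 20.5 without.

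A few barcodes carried most of the Ctsk UMIs. Ctsk encodes cathepsin K, the protease with which osteoclasts dissolve bone collagen. Of the 152 Ctsk UMIs in the WB1P-Myc tumour-low barcodes, 137 came from 5 barcodes, 2, 0, 1 and 2 per fraction. The same 5 held 84 UMIs of Acp5 (tartrate-resistant acid phosphatase) against 41 in the 102 barcodes without Ctsk, 25 of Mmp9 against 3, and 24 of Atp6v0d2, a proton pump subunit, against 7. Lyz2 had 1 UMI in the 5 and 1837 in the 102, Apoe 12 and 1499, and Cd14 1 and 362. Tyrobp, at 1640 and 1459 CPM, was alike, so these 5 passed the myeloid condition mostly without Lyz2. Barcodes with 10 or more Ctsk UMIs numbered 1 of 15 in WB1P, 1 of 284 in the C1q-positive MHC II-low class of WB1P-Myc, and 0 of 71 in its MHC II-high class. The Ctsk ratios above thus rest on very few barcodes.

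**Figure D5:**
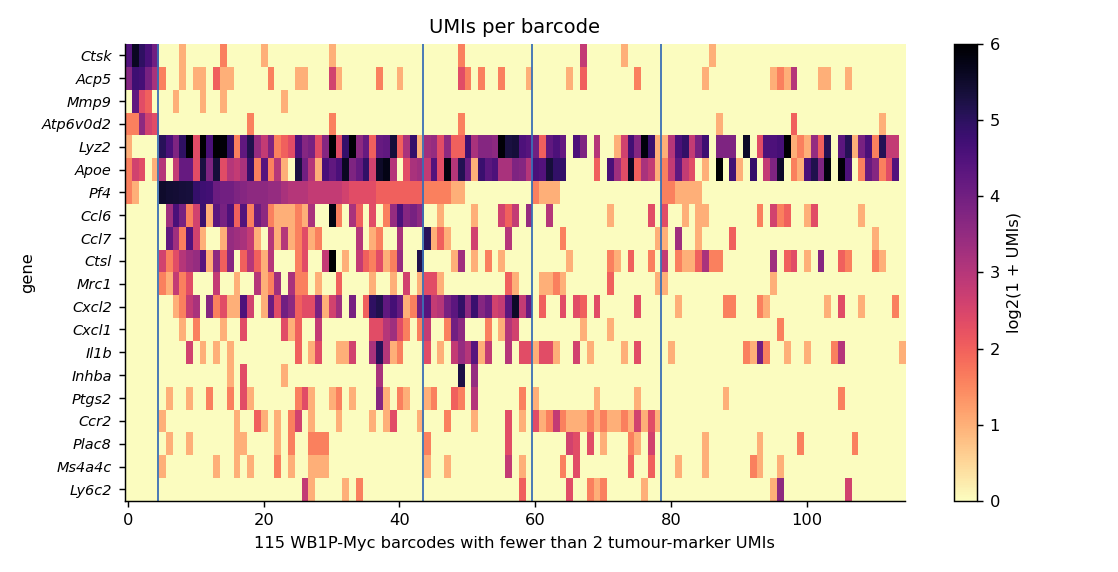
Columns are the 115 tumour-low WB1P-Myc barcodes and rows 20 genes, and colour gives log2(1 + UMIs) on a scale that ends at 6, with lines between barcodes with 10 or more Ctsk UMIs (5), then 3 or more Pf4 (39), then 5 or more Cxcl2 (16), then 1 or more Ccr2 (19) and the rest (36). Acp5 and Atp6v0d2 fill the first block, where Lyz2 and Apoe are pale, and Ccl6, Ccl7 and Ctsl are darkest in the second.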

How the data were processed

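Drop-seq counts were deposited by the authors as raw UMI counts per gene symbol and barcode, made with dropseq-tools, with mm10 named in the submitters' processing notes and 1000 barcodes per table. The values are counts, not normalized. The HiSeq tables were used, and the MiSeq tables of the same fractions only as an alternative. CPM is pooled UMIs of a class per 1000000 of its UMIs. Shares carry Clopper-Pearson intervals, CPM values Poisson intervals, and ratios intervals from a binomial conditioned on the sum of both counts. A gene at 0 took a floor of 3 counts over the group. Thinning drew 600 UMIs per barcode. No doublet caller was run, and barcodes with at least 2 tumour-marker UMIs were set apart instead. Named genes were list members, the 5 (models) or 8 (classes) highest and lowest ratios among genes with at least 50 UMIs, and the 10 highest levels. Others, named in the text as the full set of 19 genes or in the splits of barcodes, were chosen after their values were seen. The members and lists were chosen with earlier results of these data known. The ratio code was tested on simulated data. Python 3.11.15, numpy 2.4.6, scipy 1.17.1, pandas 2.3.3, and for TMM factors edgeR 4.0.16 in R 4.3.3 were used. No count model was fitted.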

Additional observations from a re-analysis of the deposited data

Results flagged for a closer look

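Of 40 groups of 4 fractions examined for a value far from the others, 4 stood out, and chance alone flags about 1 in 20 such groups. The share of selected barcodes among WB1P myeloid barcodes had 1 distant fraction, with a gap of 0.891 of the range: fraction 1 with 1 of 4 barcodes. The share of selected barcodes with tumour markers in WB1P-Myc had a gap of 0.923, fraction 3 standing at 40.5% against 21.6 to 23.1%. In the tumour-low WB1P-Myc barcodes Ccl9 had a gap of 0.871, fraction 3 being low at 664 CPM, and Ms4a7 a gap of 0.866, fraction 4 being high at 2616 CPM. Of 60 gene and class pairs compared between the models, 2 had every compared fraction of WB1P on one side and every compared fraction of WB1P-Myc on the other. Ccl2 over the C1q-positive MHC II-low class gave a log2 ratio of -2.24 in WB1P and 1.60 in WB1P-Myc. Fcrls over the C1q-negative MHC II-high class gave -0.73 as a bound in WB1P, where the tumour-low barcodes had 0 UMIs, and 1.17 in WB1P-Myc. Neither difference between models was tested. Below the limit of 450 genes, a range used above only for values at a minimum of 200 genes, 22 WB1P barcodes met the other conditions and held 3 or more neutrophil UMIs.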

How the results depend on the processing

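Of 278 values recomputed for the main shares and counts, 214 stayed within their limit and 64 moved. Of 1345 values for single named genes, 1190 kept their side of the 2-fold limit, 77 lost it, 63 gained it, 13 moved and 2 reversed. No paired analysis was possible because the fractions are technical, carry numbers only within a model and no test was run.

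Leaving out 1 fraction at a time gave WB1P shares of 1.86 to 2.38% of filtered and 6.97 to 7.89% of gated barcodes, and WB1P-Myc shares of 4.05 to 4.84% and 20.3 to 24.6%. Neutrophil shares were 19 to 23.5% and 4.17 to 10.5%, monocyte shares 70.6 to 76.5% and 67.5 to 76.2%. Genes higher in WB1P-Myc numbered 291 to 452 and lower 292 to 352, with 291 without WB1P fraction 3. Against the C1q-positive class the counts were 39 to 67 higher (39 without WB1P fraction 4) and 102 to 174 lower (102 and 103 without WB1P fractions 3 and 4). Against the MHC II-high class they were 28 to 60 (28 without WB1P fraction 4) and 44 to 75 (44 without WB1P fraction 2, 3 or 4).

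The WB1P share of filtered barcodes was 2.97% with at least 200 genes, 1.45% with a myeloid sum of 6, 2.98% with 1 C1q UMI allowed and 1.15% without tumour markers. In WB1P-Myc it was 3.29% without tumour markers and 3.16% in the MiSeq tables, and the gated share 16.4% without tumour markers. Neutrophil shares in WB1P were 7.41% at 5 UMIs, 41.8% with 200 genes and 37.5% in the MiSeq tables, and 24.2% in WB1P-Myc at 1 UMI. Monocyte shares at 1 UMI, at 5 UMIs and in the MiSeq tables were 92.6, 51.9 and 50% in WB1P and 87.3, 52.9 and 56% in WB1P-Myc. All values from the MiSeq tables rest on 8 selected WB1P and 25 selected WB1P-Myc barcodes. These tables shared few barcodes with the HiSeq tables, so their values do not come from the same barcodes processed in another way.

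Counts higher and lower in WB1P-Myc were 210 and 207 with a myeloid sum of 6, 68 and 92 without tumour markers, 35 and 44 in the MiSeq tables, and 281 and 146 at a minimum of 50 UMIs. With the mean of fractions of at least 10 barcodes, 2 of WB1P and 4 of WB1P-Myc, 819 were higher, and at a minimum of 1 UMI 706 were lower. Against the C1q-positive class the same 4 settings gave 20 and 71, 19 and 40, 6 and 25, and 24 and 68, with 147 and 250 at 10 UMIs, 281 and 307 at 1 UMI, and 32 higher with TMM scaling. Against the MHC II-high class they gave 14 and 28, 14 and 22, 6 and 9, and 14 and 22, with 156 and 142 at 10 UMIs and 234 and 270 at 1 UMI. With tumour-marker barcodes left out of both classes, an alternative added after seeing the data, the counts were 17 and 39, and 12 and 19. Over the C1q-positive class Krt8 and Epcam went to -1.75 and -0.93 without tumour markers, a reversal that leaving out barcodes by these genes fixes. The cause of the other moves was not tested. The 27 WB1P barcodes limit every WB1P value, and a gene with few UMIs there has a wide interval.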

Other observations

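Shallow barcodes, with 200 or more but fewer than 450 genes, held neutrophil transcripts in WB1P. Of 40 WB1P barcodes of that range that met the other conditions, 22 (55.0%, 38.5 to 70.7) had 3 or more UMIs of the neutrophil list, 0, 5, 7 and 10 per fraction. In WB1P-Myc it was 2 of 10, and that model had 231 shallow barcodes against 948, so depth and model cannot be told apart. The 24 barcodes, chosen for UMIs of this list, had a median of 476 UMIs and 256 genes. The choice itself requires such UMIs, so the values of the list's genes describe which of them were present. In these barcodes S100a8 and S100a9, which encode the calcium-binding alarmins of neutrophil cytosol, had 275 and 100 UMIs, each in 17 barcodes. G0s2 had 60 UMIs, Il1r2 41, Retnlg 24, and the neutrophil receptor genes Csf3r and Cxcr2 13 each. Il1b had 139 UMIs in 19 barcodes. Lyz2 and Apoe, which were high in the deeper selected barcodes, had 9 and 12 UMIs.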
